A study of Felis catus with 8 samples.

Results

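The genes described here are 38 genes of the extracellular matrix and of the hepatic stellate cell: collagens, the enzymes and inhibitors that remodel them, proteoglycans, matrix glycoproteins, growth factor receptors and cytoskeletal proteins of contractile cells. They were taken from a named list, and each was read from the probe sets that the platform annotation assigns to that gene alone. Of 257101 probe sets in all, 1039 named 1 of the 38 genes alone, and 524 of these passed the filter on dim signal, between 2 for LOX and 44 for FN1. All 38 genes were therefore measured, among 17910 genes tested.

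The livers came from male domestic cats at 9 months of age, on 4 diets with 2 arrays each. The combined diet held 8.6% trans fat, 24% high-fructose corn syrup (HFCS) and 1.125% of the flavour enhancer monosodium glutamate (MSG), the trans-fat/HFCS diet contained the same trans fat and HFCS without MSG, the MSG diet was cat chow with 1.125% MSG added, and the control diet was the chow alone. In every group, control included, the dams had been on the diet for 3 weeks when they were mated and stayed on it through gestation and nursing, and their sons ate it after weaning. The labels mention 4 to 5 livers per diet but give neither litters nor whether livers were pooled, so the p-values measure only the spread between arrays. Cat RNA was hybridised to a human array, HuGene 1.0 ST, so each probe set responds only as far as cat and human sequences match.

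In a healthy liver, stellate cells lie between the hepatocytes and the sinusoidal endothelium and store retinoids. After injury they can turn into contractile, matrix-secreting myofibroblasts. Platelet-derived growth factor, through the receptor PDGFRB, is a main signal for their growth, and transforming growth factor beta is a main signal for collagen synthesis. Collagen and stellate cell transcripts are minor components of whole-liver RNA. In such bulk tissue, fewer cells of a type and less RNA per cell cannot be told apart.

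Levels are given as log2 intensity, the mean over the kept probe sets of a gene, and changes as differences of log2 intensity with the moderated standard error (SE) of limma. A gene passed when its p-value, adjusted by Benjamini and Hochberg over all 17910 genes, was under 0.05. Levels of different genes are not set against each other, because probe sets differ in brightness. Across genes, Pearson's r was 0.946 to 0.968 for arrays of the same diet and 0.917 to 0.956 for arrays of different diets.

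Of the hepatic stellate cell markers that are not among the 38 genes, 12 of 13 were measured and none passed in any of the 8 comparisons. Their summed intensity was 238 to 255 on the combined arrays, 264.3 to 280.4 on the trans-fat/HFCS arrays, 253.4 to 256.1 on the MSG arrays and 260.4 to 276.2 on the control arrays. LRAT, which esterifies retinol for storage in stellate cells, had log2 intensities of 4.19 and 4.33 on the combined arrays, 4.41 and 4.43 on the trans-fat/HFCS arrays, 4.49 and 5.01 on the MSG arrays, and 4.89 and 4.62 on the control arrays. It was lower on all 4 arrays with trans fat and HFCS than on the other 4, and its change of -0.41 (SE 0.15, adjusted p = 0.13) did not pass. The list had no common direction with trans fat and HFCS: 6 of 12 changes were negative and the median was -0.04. At an unadjusted p under 0.05 LRAT was lower and 3 genes were higher, where 11.1% and 13.4% of all genes were. These 3 were CYGB, a globin of stellate cells, at 0.31 (SE 0.12, adjusted p = 0.14), HGF, the hepatocyte growth factor, at 0.34 (SE 0.15, adjusted p = 0.2), and GFAP, an intermediate filament gene, at 0.29 (SE 0.12, adjusted p = 0.19). Hepatocyte markers summed to 4363 to 4730 on the combined arrays, 4454 to 4768 on the trans-fat/HFCS arrays, 4574 to 5036 on the MSG arrays and 4540 to 4941 on the control arrays, and none of the 12 passed. Skeletal muscle markers set the trans-fat/HFCS arrays apart: 13 such genes summed to 211.9 to 232.7 on the combined arrays, 839 to 847.5 on the trans-fat/HFCS arrays, 223.3 to 225.9 on the MSG arrays and 217.2 to 223.8 on the control arrays. For those of the 38 genes that passed with trans fat and HFCS, the change is also given without these 2 arrays, an alternative chosen after the data were seen. The change left in that setting is combined minus MSG, so it is no check separate from combined against MSG. Genes of the other lists are not given in that setting.

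**Figure D1:**
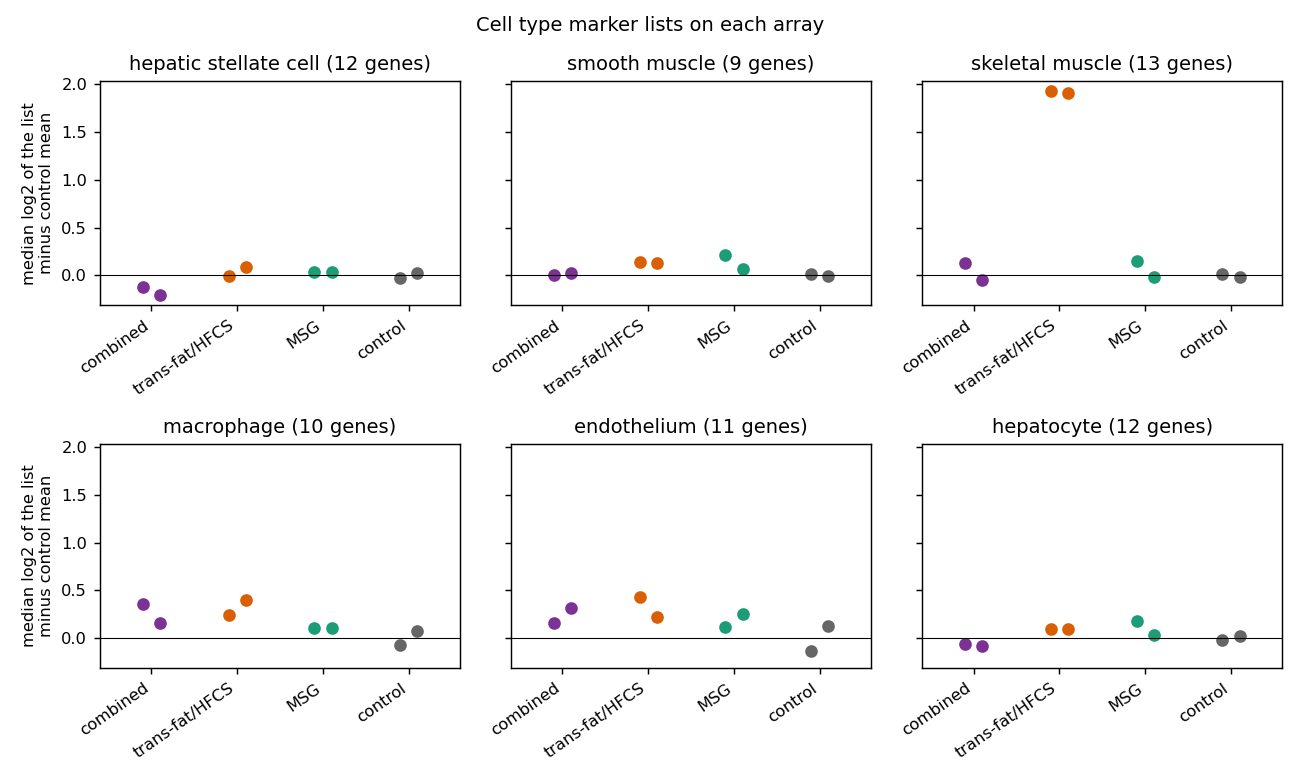
Median log2 intensity of 6 cell type marker lists on each array, minus the mean of the control arrays, with 1 point per array and the diets along the horizontal axis. The skeletal muscle list stood 1.93 and 1.91 above control on the trans-fat/HFCS arrays, while the stellate cell list lay between -0.21 and 0.09 on all 8 arrays.

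The first comparison asked how these genes differed between livers with and without trans fat and HFCS, each averaged over its MSG and MSG-free diet (4 arrays against 4). SPARC and CTGF, both secreted matrix glycoproteins, and the receptor PDGFRB fell, and the collagen VI chain COL6A1 rose. The other 34 genes did not pass. The 4 of 38 genes that passed stand against 7.66% of all genes tested, and by direction 3 fell against 3.22% of all genes and 1 rose against 4.44%. Changes were negative for 28 of the 38 genes (73.7%), against 47.7% of all genes, with a median of -0.22 against 0.02 over all genes. At an unadjusted p under 0.05, 9 of the genes were lower and 1 higher, where 11.1% and 13.4% of all genes were.

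**Figure D2:**
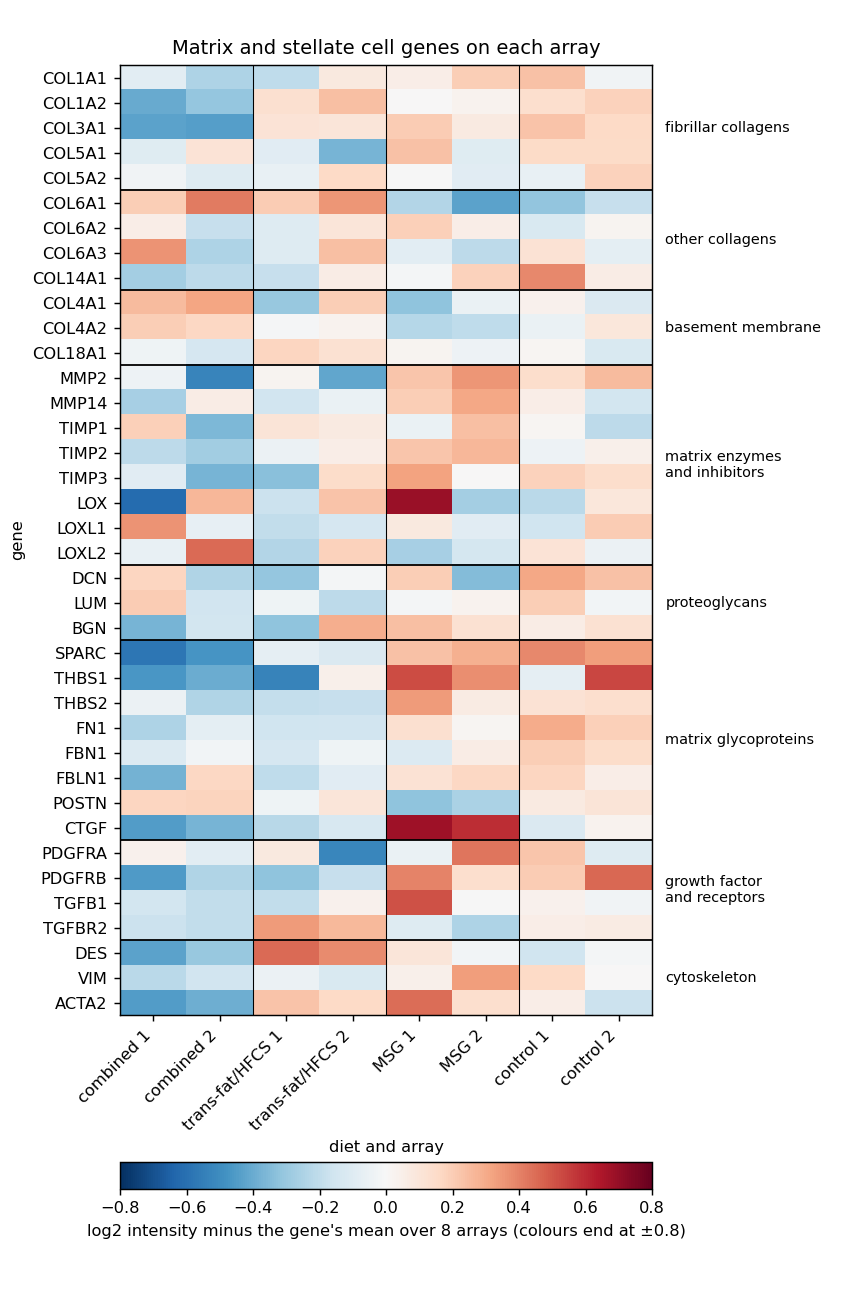
Log2 intensity of the 38 genes on each of 8 arrays minus the mean of the gene over those arrays, as colour, with genes in rows by class and arrays in columns by diet. SPARC and PDGFRB are below their mean on all 4 arrays with trans fat and HFCS, COL6A1 is above its mean there, and CTGF is above its mean mainly on the MSG arrays.

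In the class of growth factor and receptors (TGFB1, TGFBR2, PDGFRA and PDGFRB), PDGFRB is the receptor for PDGF-B and PDGF-D on stellate cells and pericytes. PDGFRB had log2 intensities of 3.06 and 3.27 on the combined arrays, 3.19 and 3.33 on the trans-fat/HFCS arrays, 3.91 and 3.64 on the MSG arrays, and 3.72 and 3.97 on the control arrays. All 4 arrays with trans fat and HFCS lay below the other 4. It fell by 0.60 (SE 0.13, 95% interval -0.89 to -0.30), a level 1.51-fold lower, with adjusted p = 0.028. Of its 11 kept probe sets 9 were lower, with changes between -1.94 and 0.56, and the brightest at -0.34. The call was lost on leaving out control array 1 (adjusted p = 0.064), control array 2 (0.11), MSG array 1 (0.099), trans-fat/HFCS array 1 (0.079), trans-fat/HFCS array 2 (0.06) or combined array 1 (0.073), and over all 16 alternatives the adjusted p was 0.02 to 0.64. With a stricter filter on dim probe sets the change was -0.21 (adjusted p = 0.64), and without both trans-fat/HFCS arrays it was -0.61 (adjusted p = 0.16).

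PDGFRA, the receptor for PDGF-A and PDGF-C, had a change of -0.25 (SE 0.18, adjusted p = 0.43). TGFB1, the ligand that drives collagen synthesis in stellate cells, had log2 intensities of 3.22 and 3.17 on the combined arrays, 3.17 and 3.40 on the trans-fat/HFCS arrays, 3.88 and 3.36 on the MSG arrays, and 3.40 and 3.34 on the control arrays. One MSG array stood above the other 7, and the groups overlapped. The change of TGFB1 was -0.25 (SE 0.14, adjusted p = 0.31). TGFBR2, the receptor that binds the TGF-beta ligands, was the member of the class with a positive change, at 0.12 (SE 0.11, adjusted p = 0.57).

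The matrix glycoproteins bind collagen, growth factors or cells, and the change was negative for 7 of the 8 (class median -0.32). SPARC, which binds collagen and is made by stellate cells and fibroblasts, had log2 intensities of 5.05 and 5.16 on the combined arrays, 5.56 and 5.52 on the trans-fat/HFCS arrays, 5.87 and 5.92 on the MSG arrays, and 6.02 and 5.97 on the control arrays. The 4 diets did not overlap: both combined arrays were lowest, then both trans-fat/HFCS arrays, then both MSG arrays, then both control arrays. SPARC fell by 0.62 (SE 0.11, 95% interval -0.87 to -0.37) with trans fat and HFCS, with adjusted p = 0.014. All 8 of its kept probe sets were lower, with changes between -0.96 and -0.15. The call was lost without control array 1 (adjusted p = 0.061), control array 2 (0.054) or MSG array 1 (0.051), and over 16 alternatives the adjusted p was 0.0047 to 0.28. Without both trans-fat/HFCS arrays the change of SPARC was -0.79 (adjusted p = 0.067).

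CTGF, a matricellular protein that TGF-beta induces, had log2 intensities of 3.72 and 3.79 on the combined arrays, 3.94 and 4.04 on the trans-fat/HFCS arrays, 4.85 and 4.76 on the MSG arrays, and 4.05 and 4.20 on the control arrays. The MSG arrays were highest and the combined arrays lowest, and trans-fat/HFCS array 2 lay just below control array 1. CTGF fell by 0.59 (SE 0.11, 95% interval -0.84 to -0.33), a level 1.50-fold lower, with adjusted p = 0.018. The change rested on 2 of its 5 kept probe sets, at -1.66 and -1.40, while the other 3 lay between -0.24 and 0.21. The call was lost without control array 1 (adjusted p = 0.057), control array 2 (0.078), MSG array 1 (0.069) or trans-fat/HFCS array 1 (0.054), and over 16 alternatives the adjusted p was 0.005 to 0.1. Without both trans-fat/HFCS arrays CTGF still passed, at -1.04 (adjusted p = 0.029).

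THBS1, a glycoprotein that can activate latent TGF-beta, had log2 intensities of 3.28 and 3.35 on the combined arrays, 3.22 and 3.79 on the trans-fat/HFCS arrays, 4.27 and 4.12 on the MSG arrays, and 3.68 and 4.29 on the control arrays; it is shown, like the other genes outside the naming rule, because of values already seen. The spread within the trans-fat/HFCS and control diets was wide, and trans-fat/HFCS array 2 lay above control array 1. Its change of -0.68 (SE 0.18, adjusted p = 0.052) did not pass, with 8 of 10 probe sets lower. It passed, lower, with no filter on dim probe sets, with a filter at the 75th percentile, with the brightest probe set, with a variance trend on intensity and without trans-fat/HFCS array 2. The change was -0.33 (SE 0.12, adjusted p = 0.14) for THBS2, a relative of THBS1, and -0.32 (SE 0.11, adjusted p = 0.13) for the cell-adhesive glycoprotein FN1. Both lay lower on all 4 arrays with trans fat and HFCS than on the other 4, and 35 of the 44 kept probe sets of FN1 were lower. FBLN1, a fibulin of elastic fibres and basement membranes, had a change of -0.25 (adjusted p = 0.31), with 10 of 11 probe sets lower. FBN1, the main microfibril protein, had a change of -0.15 (adjusted p = 0.46), and POSTN, a matricellular protein of remodelling tissue, one of 0.20 (adjusted p = 0.3).

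**Figure D3:**
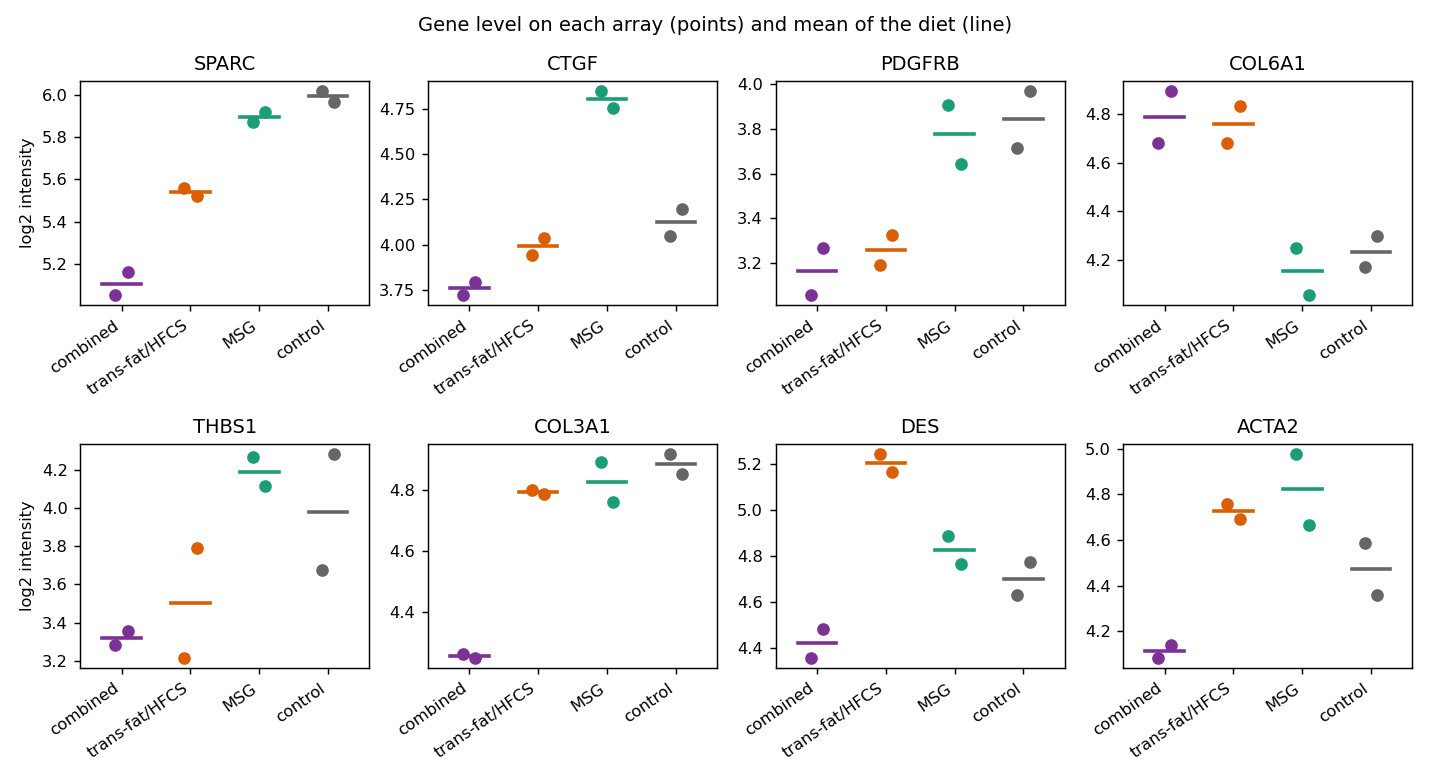
Log2 intensity of 8 genes on each array (points, 2 per diet) with the mean of each diet (line); each panel has its own vertical scale, which does not start at 0. SPARC is lowest on the combined arrays (5.05 and 5.16) and highest on the control arrays (6.02 and 5.97), and COL6A1 is higher on all 4 arrays with trans fat and HFCS than on the other 4.

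The fibrillar collagens I, III and V form the tensile fibres that accumulate in a fibrotic liver. The change was negative for all 5 chains (median -0.22) and none passed. Read from the brightest probe set alone, COL5A2 turned to 1.25 and COL5A1 was at -2.90, and both passed. COL3A1, the collagen III chain, had log2 intensities of 4.26 and 4.25 on the combined arrays, 4.80 and 4.79 on the trans-fat/HFCS arrays, 4.89 and 4.76 on the MSG arrays, and 4.92 and 4.85 on the control arrays. Only the combined arrays stood clearly apart from the other 6 for COL3A1. Its change with trans fat and HFCS was -0.33 (SE 0.11, adjusted p = 0.1), with 20 of 28 probe sets lower. COL1A1, the alpha-1 chain of collagen I, had log2 intensities of 4.18 and 4.01 on the combined arrays, 4.06 and 4.34 on the trans-fat/HFCS arrays, 4.32 and 4.46 on the MSG arrays, and 4.50 and 4.23 on the control arrays. The groups overlapped, and the change of COL1A1 was -0.23 (SE 0.13, adjusted p = 0.32). The change was -0.17 for COL1A2 (adjusted p = 0.37), -0.22 for COL5A1 (adjusted p = 0.34) and -0.02 for COL5A2 (adjusted p = 0.95).

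Of the other collagens, COL6A1 encodes the alpha-1 chain of collagen VI, which forms beaded microfilaments around cells. COL6A1 had log2 intensities of 4.68 and 4.90 on the combined arrays, 4.68 and 4.84 on the trans-fat/HFCS arrays, 4.25 and 4.05 on the MSG arrays, and 4.17 and 4.30 on the control arrays. All 4 arrays with trans fat and HFCS lay above the other 4. COL6A1 rose by 0.58 (SE 0.12, 95% interval 0.31 to 0.86), a level 1.50-fold higher, with adjusted p = 0.025. Of 17 probe sets 13 were higher, with changes between -1.13 and 2.00, and the brightest at 0.80. The call was lost on leaving out control array 1 (adjusted p = 0.096), control array 2 (0.073), MSG array 1 (0.062), MSG array 2 (0.077), trans-fat/HFCS array 1 (0.052), trans-fat/HFCS array 2 (0.073) or combined array 2 (0.056), and over 16 alternatives the adjusted p was 0.011 to 0.13. Without both trans-fat/HFCS arrays the change was 0.64 (adjusted p = 0.13).

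COL6A2 and COL6A3 encode the partner chains of collagen VI, and their changes were -0.07 (adjusted p = 0.78) for COL6A2 and 0.13 (adjusted p = 0.69) for COL6A3. In COL6A2 8 of the 16 probe sets were lower and 8 higher. The brightest probe set of COL6A2 was at 1.36, and the gene passed when each gene was read from its brightest probe set. COL14A1, a collagen on the surface of fibrils, had log2 intensities of 4.48 and 4.55 on the combined arrays, 4.57 and 4.81 on the trans-fat/HFCS arrays, 4.74 and 4.94 on the MSG arrays, and 5.14 and 4.81 on the control arrays. The combined arrays were lowest, and trans-fat/HFCS array 2 lay within the range of the MSG arrays. Its change was -0.31 (SE 0.13, adjusted p = 0.19), and 0.46 with its brightest probe set alone.

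**Figure D4:**
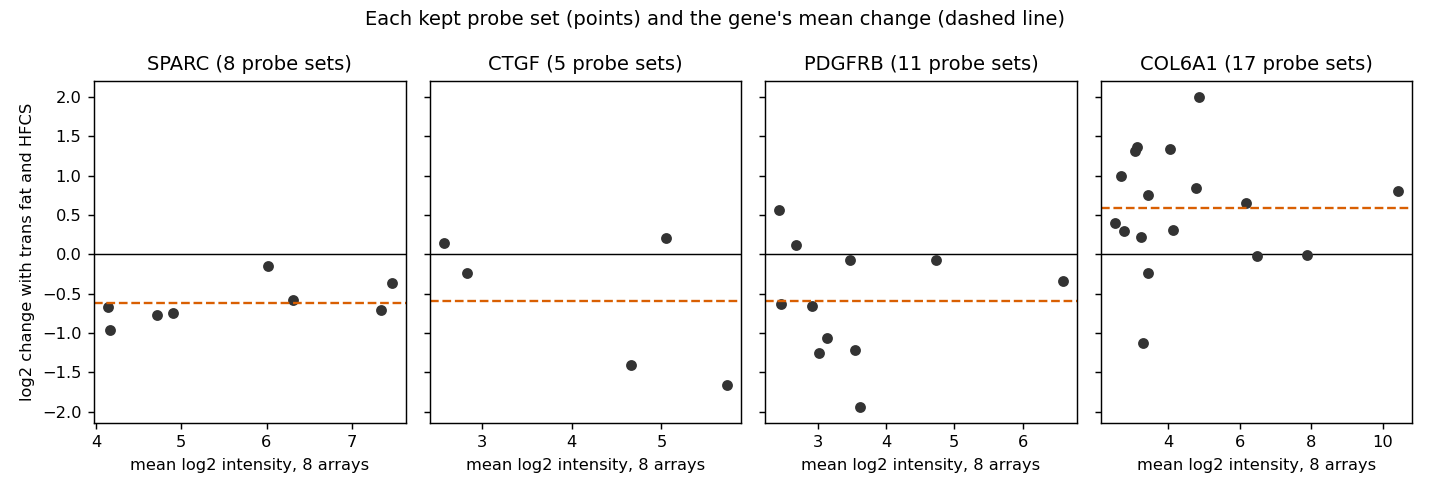
Log2 change with trans fat and HFCS (4 arrays against 4, vertical axis) of each kept probe set of SPARC, CTGF, PDGFRB and COL6A1 against its mean log2 intensity over 8 arrays (horizontal axis), with the mean of the gene as a dashed line. All 8 SPARC probe sets are below 0, whereas the mean of CTGF rests on the 2 probe sets at -1.66 and -1.40.

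Collagens IV and XVIII are collagens of basement membranes, and in the class none of the 3 genes had a negative change. COL4A1, the alpha-1 chain of collagen IV, had log2 intensities of 4.41 and 4.47 on the combined arrays, 3.85 and 4.35 on the trans-fat/HFCS arrays, 3.83 and 4.10 on the MSG arrays, and 4.19 and 4.04 on the control arrays. COL4A2, its partner chain, had log2 intensities of 3.89 and 3.86 on the combined arrays, 3.69 and 3.73 on the trans-fat/HFCS arrays, 3.47 and 3.50 on the MSG arrays, and 3.65 and 3.79 on the control arrays. For both chains the combined arrays were the highest of the 8. The changes were 0.23 (SE 0.15, adjusted p = 0.37) for COL4A1, 0.19 (SE 0.11, adjusted p = 0.32) for COL4A2, and 0.06 (SE 0.11, adjusted p = 0.78) for COL18A1.

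Several of these genes are neighbours in the cat gene table. COL4A1 lies next to COL4A2, and their changes were 0.23 and 0.19. COL6A1 lies next to COL6A2, with changes of 0.58 and -0.07. COL3A1 lies next to COL5A2, with changes of -0.33 and -0.02, and DCN lies next to LUM, with changes of -0.20 and -0.09.

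The proteoglycans decorin (DCN), lumican (LUM) and biglycan (BGN) are small leucine-rich proteoglycans that bind collagen fibrils. All 3 changes were negative and none passed. BGN had log2 intensities of 4.17 and 4.39 on the combined arrays, 4.22 and 4.83 on the trans-fat/HFCS arrays, 4.78 and 4.66 on the MSG arrays, and 4.60 and 4.66 on the control arrays. DCN had log2 intensities of 4.77 and 4.36 on the combined arrays, 4.29 and 4.58 on the trans-fat/HFCS arrays, 4.79 and 4.25 on the MSG arrays, and 4.91 and 4.83 on the control arrays. In both genes the arrays of some diets lay far apart, and the groups overlapped. The change was -0.27 (SE 0.15, adjusted p = 0.32) for BGN, -0.20 (SE 0.16, adjusted p = 0.51) for DCN and -0.09 (SE 0.13, adjusted p = 0.71) for LUM.

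Among the enzymes and inhibitors that remodel the matrix, 6 of 8 changes were negative, with a median of -0.18, and none passed. MMP2, the gelatinase secreted by stellate cells, had log2 intensities of 3.76 and 3.27 on the combined arrays, 3.82 and 3.38 on the trans-fat/HFCS arrays, 4.02 and 4.15 on the MSG arrays, and 3.94 and 4.05 on the control arrays. All 4 arrays with trans fat and HFCS lay below the other 4, with a wide spread within both diets. Its change was -0.48 (SE 0.16, adjusted p = 0.096), with 5 of 7 probe sets lower and the brightest at 0.11. TIMP2, which inhibits metalloproteinases and takes part in MMP2 activation, had log2 intensities of 3.91 and 3.84 on the combined arrays, 4.07 and 4.17 on the trans-fat/HFCS arrays, 4.34 and 4.38 on the MSG arrays, and 4.07 and 4.16 on the control arrays. The MSG arrays were highest and the combined arrays lowest, while the trans-fat/HFCS and control arrays overlapped. The change of TIMP2 was -0.24 (SE 0.11, adjusted p = 0.22). MMP14, the membrane-bound activator of MMP2, had a change of -0.21 (adjusted p = 0.35). The change was 0.00 (adjusted p = 0.99) for the inhibitor TIMP1 and -0.33 (adjusted p = 0.23) for the inhibitor TIMP3. Of the lysyl oxidases that cross-link collagen, LOX was at -0.15 (adjusted p = 0.78), LOXL1 at -0.02 (adjusted p = 0.95) and LOXL2 at 0.17 (adjusted p = 0.55).

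Of the cytoskeletal genes, VIM, an intermediate filament gene of mesenchymal cells, had log2 intensities of 5.32 and 5.39 on the combined arrays, 5.49 and 5.42 on the trans-fat/HFCS arrays, 5.58 and 5.87 on the MSG arrays, and 5.70 and 5.55 on the control arrays. All 4 arrays with trans fat and HFCS lay narrowly below the other 4, and the change of VIM was -0.27 (SE 0.12, adjusted p = 0.21). ACTA2, the smooth muscle actin that marks activated stellate cells and vessel walls, had log2 intensities of 4.08 and 4.14 on the combined arrays, 4.76 and 4.69 on the trans-fat/HFCS arrays, 4.98 and 4.67 on the MSG arrays, and 4.58 and 4.36 on the control arrays. Only the combined arrays stood apart, below the other 6. With trans fat and HFCS the change was -0.23 (SE 0.13, adjusted p = 0.3) for ACTA2 and 0.05 (SE 0.11, adjusted p = 0.84) for DES, a further intermediate filament gene.

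With trans fat and HFCS, 7 of the 38 genes had all 4 arrays below the other 4 (MMP2, SPARC, THBS2, FN1, CTGF, PDGFRB and VIM), where 6.72% of all genes did. Only COL6A1 had all 4 arrays above the other 4, where 8.29% of all genes did.

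The question was next put on each base diet separately, with 2 arrays against 2. The combined diet against the MSG diet and the trans-fat/HFCS diet against control share no array, although the fit pools their spread. Combined against MSG, 2 of the 38 genes passed, both lower, against 1.66% of all genes tested in either direction and 0.715% lower. CTGF fell by 1.04 (SE 0.16), a level 2.06-fold lower (adjusted p = 0.017), and SPARC fell by 0.79 (SE 0.16), a level 1.72-fold lower (adjusted p = 0.045). The fall of CTGF rested on 2 of its 5 probe sets, at -2.47 and -2.55, while the others lay between -0.37 and 0.16. Negative changes were found in 29 of 38 genes, with a median of -0.27 against 0.01 over all genes. At an unadjusted p under 0.05, 10 genes were lower and 4 higher, where 7.69% and 9.65% of all genes were. The genes nearest to passing were ACTA2 at -0.71 (SE 0.18, adjusted p = 0.092), COL3A1 at -0.57 (SE 0.16, adjusted p = 0.11), COL6A1 at 0.64 (SE 0.17, adjusted p = 0.11) and THBS1 at -0.88 (SE 0.25, adjusted p = 0.13). ACTA2 passed here, lower, with no filter on dim probe sets and with a filter at the 75th percentile. On these arrays the skeletal muscle markers summed to 211.9 to 232.7 in combined and 223.3 to 225.9 in MSG, and none passed.

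The call for CTGF was lost without MSG array 1 (adjusted p = 0.13), MSG array 2 (0.091), combined array 1 (0.07) or combined array 2 (0.06), within a range of 0.0059 to 0.2 over 15 alternatives. That for SPARC was lost on leaving out any 1 of the 8 arrays, with adjusted p between 0.067 (either trans-fat/HFCS array) and 0.19 (MSG array 1), within a range of 0.016 to 0.37 over 15 alternatives.

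In the trans-fat/HFCS diet against control, limma called none of the 38 genes, against 2.48% of all genes tested, and at an unadjusted p under 0.05 it had 2 higher and 3 lower, where 9.94% and 8.31% of all genes were. The higher ones were COL6A1 at 0.53 (SE 0.17, adjusted p = 0.15) and DES at 0.50 (SE 0.16, adjusted p = 0.14). The lower ones were PDGFRB at -0.58 (SE 0.18, adjusted p = 0.14), SPARC at -0.45 (SE 0.16, adjusted p = 0.16) and FN1 at -0.40 (SE 0.16, adjusted p = 0.24). CTGF was at -0.13 (SE 0.16, adjusted p = 0.71). The median was -0.10 against 0.01 over all genes, with 27 of 38 changes negative. Of the 38 genes, 20 (52.6%) were negative in both of these comparisons, where 29.8% of all genes were. The 2 genes COL6A1 and COL6A3 were positive in both, where 5898 of all 17910 genes were.

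**Figure D5:**
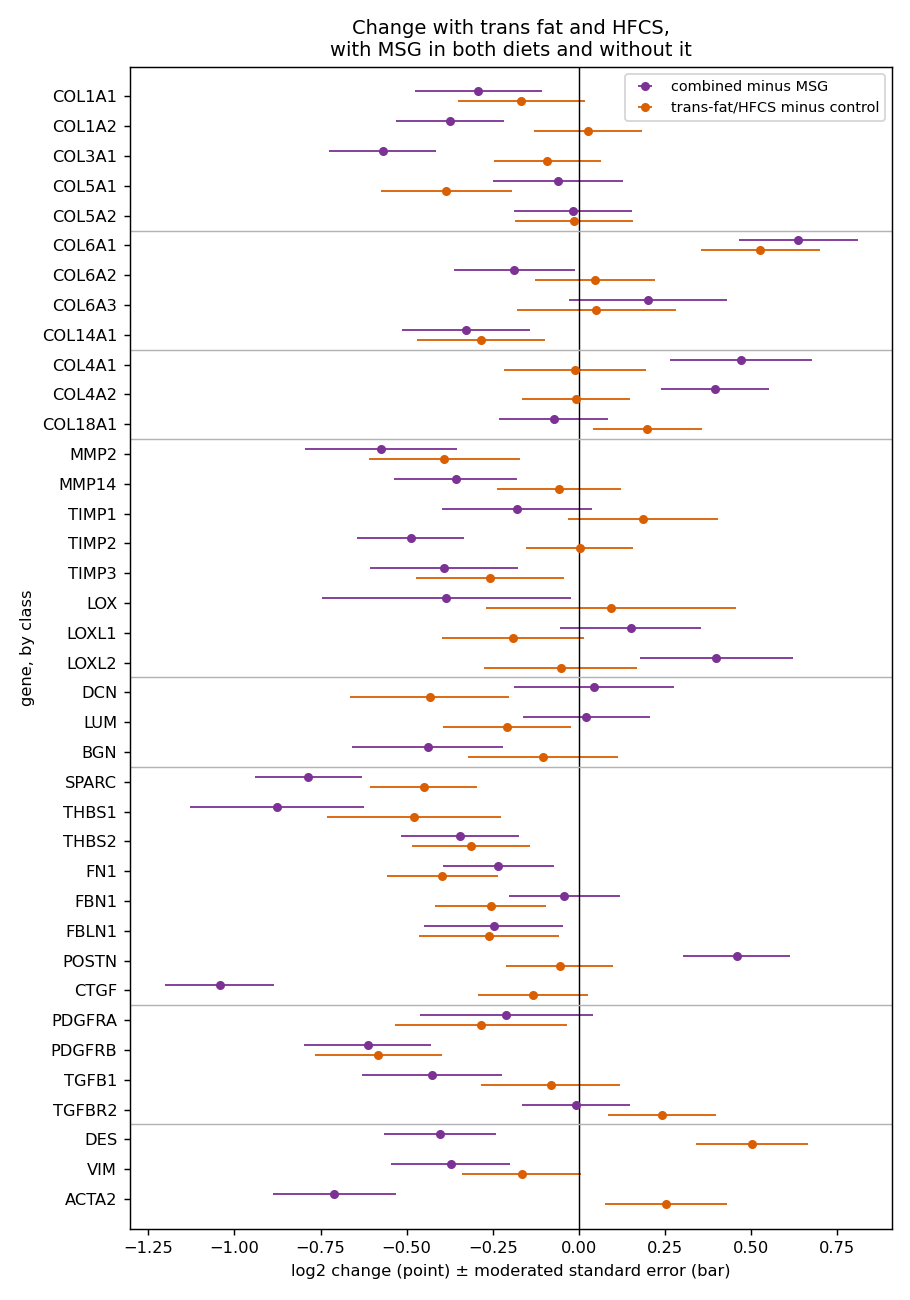
Log2 change (point) with moderated standard error (bar) of the 38 genes on the horizontal axis, for combined minus MSG (purple) and trans-fat/HFCS minus control (orange), with 2 arrays in each diet. PDGFRB lies at -0.61 in combined minus MSG and -0.58 in trans-fat/HFCS minus control, and CTGF at -1.04 in combined minus MSG and -0.13 in trans-fat/HFCS minus control.

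The interaction asked whether the MSG change differed between the trans-fat/HFCS base and the chow base, which is the same as asking whether the trans-fat/HFCS change differed with MSG. None of the 38 genes passed with limma, against 0.151% of all genes tested, and at an unadjusted p under 0.05 there were 3 lower and 1 higher, where 4.37% and 4.71% of all genes were. ACTA2 had an interaction of -0.96 (SE 0.25, adjusted p = 0.32), with all 9 of its probe sets negative. CTGF had one of -0.91 (SE 0.23, adjusted p = 0.28), with 4 of 5 probe sets negative. It rested mainly on 2 of them, at -2.30 and -1.63, and the median of the 5 was -0.39. POSTN had one of 0.51 (SE 0.22, adjusted p = 0.54), with 14 of 18 probe sets positive.

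DES, the intermediate filament of muscle and of stellate cells in rodents, had log2 intensities of 4.36 and 4.49 on the combined arrays, 5.24 and 5.16 on the trans-fat/HFCS arrays, 4.89 and 4.76 on the MSG arrays, and 4.63 and 4.77 on the control arrays. It was highest on the trans-fat/HFCS arrays and lowest on the combined arrays, and its interaction was -0.90 (SE 0.23, adjusted p = 0.3). Of its 9 probe sets 7 were negative in the interaction, but the brightest was at 1.01. In trans-fat/HFCS against control 7 of the 9 were positive, with the brightest at -0.59. The skeletal muscle markers were, like DES, highest on the trans-fat/HFCS arrays: their summed level was 839 to 847.5 there and 211.9 to 232.7 on all others. Unlike DES, they were not lowest on both combined arrays, which lay on either side of the MSG and control arrays. Of the 14 listed skeletal muscle genes, DES among them, 11 passed as higher in trans-fat/HFCS than in control, and DES did not. Smooth muscle markers other than ACTA2 and DES, 9 in number, summed to 344.4 to 377.4 on the combined arrays, 385.8 to 446.8 on the trans-fat/HFCS arrays, 352.7 to 375.3 on the MSG arrays and 332.9 to 349.4 on the control arrays, and none passed. The part of either kind of muscle in the values of DES and ACTA2 was not tested. DES was also lower in combined than in MSG, at -0.40 (SE 0.16, adjusted p = 0.25), a comparison without the trans-fat/HFCS arrays that did not pass. There 5 of its 9 probe sets were lower, and the brightest was at 0.42.

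MSG was compared on both bases together, with 4 arrays against 4. None of the 38 genes passed with limma, against 0.329% of all genes tested, and the median change was -0.03. At an unadjusted p under 0.05, 5 genes were lower and 0 higher, where 4.17% and 3.74% of all genes were. These were TGFBR2 at -0.36 (SE 0.11, adjusted p = 0.43), COL1A2 at -0.34 (SE 0.11, adjusted p = 0.45), DES at -0.33 (SE 0.11, adjusted p = 0.51), COL3A1 at -0.30 (SE 0.11, adjusted p = 0.54) and SPARC at -0.27 (SE 0.11, adjusted p = 0.6). TGFBR2 and COL1A2 had all 4 arrays with MSG below the other 4, as 1.59% of all genes did, and none had them above, as 1.09% did. Of the 14 skeletal muscle markers 9 passed as lower with MSG in the same comparison, and their part in these values was not tested.

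TGFBR2 had log2 intensities of 6.66 and 6.63 on the combined arrays, 7.17 and 7.09 on the trans-fat/HFCS arrays, 6.73 and 6.58 on the MSG arrays, and 6.88 and 6.90 on the control arrays. COL1A2 had log2 intensities of 4.49 and 4.58 on the combined arrays, 5.02 and 5.13 on the trans-fat/HFCS arrays, 4.89 and 4.92 on the MSG arrays, and 5.02 and 5.07 on the control arrays. In COL1A2 the combined arrays stood clear below the other 6, and the MSG arrays lay just below the trans-fat/HFCS and control arrays. In TGFBR2 the trans-fat/HFCS arrays were highest.

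On chow, the MSG diet against control had none of the 38 genes past the threshold with limma, against 0.296% of all genes tested, and at an unadjusted p under 0.05 there were 1 higher and 1 lower, where 3.52% and 4.12% of all genes were. CTGF was at 0.68 (SE 0.16, adjusted p = 0.22), and both MSG arrays lay above both control arrays. Of its 5 probe sets 2 were at 1.60 and 2.08, and the median of the 5 was 0.12. POSTN was at -0.37 (SE 0.16, adjusted p = 0.62). On the trans-fat/HFCS base, the combined diet against the trans-fat/HFCS diet also had none past the threshold, against 0.179% of all genes tested, but 6 lower and 0 higher at an unadjusted p under 0.05, where 4.5% and 4.48% of all genes were. These were DES at -0.78 (adjusted p = 0.17), ACTA2 at -0.61 (adjusted p = 0.38), COL1A2 and COL3A1 both at -0.54 (adjusted p = 0.38), TGFBR2 at -0.48 (adjusted p = 0.42) and SPARC at -0.43 (adjusted p = 0.48). COL1A2 was lower in 31 of 38 probe sets and COL3A1 in 24 of 28. In the same comparison 11 of the 14 skeletal muscle markers passed as lower in combined, and their part in these values was not tested.

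The combined diet was finally set against control. SPARC was the 1 gene of the 38 that passed, against 1.16% of all genes tested and 0.581% of all genes lower. It fell by 0.88 (SE 0.16, 95% interval -1.23 to -0.53), a level 1.84-fold lower, with adjusted p = 0.038. Leaving out any 1 of the 8 arrays ended the call, with adjusted p between 0.058 (either trans-fat/HFCS array) and 0.24 (control array 1), within a range of 0.012 to 0.3 over 15 alternatives. Of the 38 changes 30 were negative, with a median of -0.24 against 0.02 over all genes. At an unadjusted p under 0.05, 8 genes were lower and 1 higher, where 7.54% and 8.93% of all genes were. Below SPARC came COL3A1 at -0.63 (SE 0.16, adjusted p = 0.098), PDGFRB at -0.68 (SE 0.18, adjusted p = 0.12), COL1A2 at -0.52 (SE 0.16, adjusted p = 0.15) and COL6A1 at 0.56 (SE 0.17, adjusted p = 0.16).

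The wider pathway around these genes was read from 6 lists, first in the trans-fat/HFCS main effect, where 3.22% of all genes fell and 4.44% rose. Of the TGF-beta pathway, 19 of 20 genes were measured and 2 fell, with a list median of -0.20. SMAD3, which carries the TGF-beta signal to the nucleus, fell by 0.68 (SE 0.11, adjusted p = 0.011), and the co-receptor TGFBR3 fell by 0.60 (SE 0.15, adjusted p = 0.049). All 4 PDGF ligands had negative changes, with a median of -0.36, and none passed. PDGFC was at -0.38 (SE 0.11, adjusted p = 0.078), PDGFD at -0.41 (SE 0.15, adjusted p = 0.13), PDGFA at -0.35 (SE 0.12, adjusted p = 0.12) and PDGFB at -0.10 (SE 0.24, adjusted p = 0.83).

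Of the enzymes and chaperones that process collagen, 17 of 18 genes were measured, none passed and the median was -0.01. Of 15 laminins and other basement membrane genes 1 rose, COL4A4, a collagen IV chain, by 0.62 (SE 0.13, adjusted p = 0.025), and the list median was 0.16. Of 17 integrins and other matrix receptors 2 rose, ITGA2 by 0.93 (SE 0.23, adjusted p = 0.04) and ITGB6 by 0.59 (SE 0.14, adjusted p = 0.036). ITGA2 is a collagen receptor chain and ITGB6 a chain of an integrin that activates TGF-beta. ITGA1, another collagen receptor chain, fell by 0.53 (SE 0.13, adjusted p = 0.044). Of 22 genes listed as other matrix proteases 1 fell, MMP11, by 0.98 (SE 0.12, adjusted p = 0.0033), and the list median was 0.14. The 1 of 15 and 1 of 22 genes lie near the shares of all genes. No gene of these 6 lists passed in the MSG main effect or in the interaction, but 3 passed between single diets. ITGB6 was lower in MSG than in control, at -1.27 (SE 0.20, adjusted p = 0.039), and higher in combined than in MSG, at 1.26 (SE 0.20, adjusted p = 0.017). Neither ITGB6 nor any other listed matrix receptor passed as higher in trans-fat/HFCS or combined against control. In trans-fat/HFCS against control ITGA6, a laminin receptor chain, fell by 0.97 (SE 0.20, adjusted p = 0.043) and MMP11 fell by 1.20 (SE 0.17, adjusted p = 0.012).

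Macrophage markers, 10 of 10 measured, summed to 344.4 to 367.6 on the combined arrays, 313.2 to 353.5 on the trans-fat/HFCS arrays, 273.8 to 299.4 on the MSG arrays and 308 to 313.8 on the control arrays. Of these CD68, a lysosomal protein of macrophages, rose by 0.78 (SE 0.14, adjusted p = 0.015) with trans fat and HFCS, and the scavenger receptor MSR1 also passed, higher. In trans-fat/HFCS against control CD68 rose by 1.31 (SE 0.20, adjusted p = 0.015), and in combined against MSG no macrophage marker passed. In the trans-fat/HFCS main effect 10 of the 14 skeletal muscle markers passed as higher, and no endothelial, cholangiocyte or mesothelial marker passed. Of the 6 adipocyte markers 2 passed, ADIPOQ higher and LEP lower. Over all genes 4.44% rose and 3.22% fell in that comparison. The part of these cell types in the matrix gene values was not tested.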

How the data were processed

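Total RNA (250 ng) of 8 livers or liver pools was hybridised to 1-colour Affymetrix arrays. The deposited values are intensities on a linear scale, already normalized by the authors, 1 per exon-level probe set; the linear scale was inferred from their range (2.22 to 22966). Per the submitters' processing notes, GCRMA, Partek and hg19 are listed, with no version or role given. Values were log2 transformed here. Probe sets with a mean above the median of all probe sets (log2 2.43) were kept, and those with exactly 1 gene were averaged per gene.

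The 8 arrays were fitted together in a 4-group model (limma 3.58.1, R 4.3.3; 4 residual and 5.01 prior degrees of freedom), two-sided, with Benjamini-Hochberg adjustment over 17910 genes. A main effect averages 2 differences between diets. The steps were tested on simulated data. The number of arrays limits the precision.

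Values on each array are given for genes that passed in any of 8 comparisons and for the 2 genes of each class with the smallest p in the trans-fat/HFCS main effect; those of THBS1, DES, COL1A2 and TGFBR2 were chosen after their values were seen. From each pathway list, up to 4 genes that passed are named, and the PDGF ligands were added after their values were seen. Genes and lists were chosen with earlier results of these data known. Symbols are those of the platform annotation, and 37 of 38 matched a cat gene table (F.catus_Fca126_mat1.0). CTGF was not found there under that symbol. The table was used for names and neighbours only, and no sequence is shown.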

Additional observations from a re-analysis of the deposited data

How the results depend on the processing

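With trans fat and HFCS, 4 genes passed in the main setting, 8 with the brightest probe set of each gene, 0 with the median of probe sets and 0 to 3 on leaving out 1 array (0 without control array 1, control array 2 or MSG array 1, and 1 without trans-fat/HFCS array 1). Without both trans-fat/HFCS arrays, an alternative chosen after the data were seen that leaves combined minus MSG, 1 passed. Combined against MSG, 2 passed, against 7, 0 and 0 to 1 in those settings, and combined against control 1 passed, against 3, 0 and 0 to 0. With the brightest probe set, the 8 were 3 higher and 5 lower, and the 7 were 4 higher and 3 lower. The 3 were COL6A2, higher, and TIMP3 and THBS1, lower. SPARC was not among the genes that passed with the brightest probe set in these comparisons. Trans-fat/HFCS against control had 0, against 4 with the brightest probe set and 1 with no filter on dim probe sets. Combined against trans-fat/HFCS had 0, against 1 with no filter, and MSG against control 0, against 1 (CTGF) with a filter at the 75th percentile. Leaving out 1 array gave 0 to 0 in the comparisons not named with another range. Leaving out an array also leaves fewer residual degrees of freedom; the cause of the other shifts was not tested. Among the genes named by the rule, the direction turned for COL14A1 (0.46), MMP2 (0.11) and DCN (0.21) with the brightest probe set, for COL4A1 (-0.052) with the median of probe sets, and for DCN (0.04) without both trans-fat/HFCS arrays. Of the others, COL5A2 (1.25), COL6A2 (1.36), COL18A1 (-0.64), TIMP1 (-0.29), LOXL1 (0.28) and DES (-0.08) turned with the brightest probe set. The median change of the 38 genes with trans fat and HFCS stayed negative, between -0.27 and -0.11, with 25 to 30 negative over 16 settings. ACTA2 passed in that comparison with the filter at the 75th percentile (-0.54, adjusted p = 0.035). Arrays with the same replicate number did not deviate together (6 correlations between -0.056 and 0.043). With the replicate number as a block, SPARC no longer passed in combined against control (adjusted p = 0.069) or against MSG (0.079), which left 0 and 1 genes, and the other calls held. Over the 19 results for genes named by the rule, 238 repeats kept direction and side of the threshold, 57 lost the call, 1 gained it and 5 turned direction. The 238 include results with no call to lose. With trans fat and HFCS, of 16 alternatives SPARC passed in 10, CTGF in 11, COL6A1 in 7 and PDGFRB in 6. Of 15 alternatives, SPARC passed in 4 for combined against control. For combined against MSG, SPARC passed in 4 and CTGF in 10 of 15. Of the other genes, THBS1, THBS2, TIMP3, FN1, COL5A1, COL5A2 and COL6A2 passed with trans fat and HFCS in at least 1 alternative.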
